A study of Oryza sativa with 23 samples.

Results

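The 7 genes described here encode transporters of metal chelates and of the chelators themselves in rice (Oryza sativa). They are OsYSL15 (OS02G0650300), OsYSL2 (OS02G0649900), OsYSL16 (OS04G0542800), OsYSL6 (OS04G0390500) and OsYSL13 (OS04G0524600) of the yellow stripe-like family, and the efflux transporters TOM1 (OS11G0134900) and ENA1 (OS11G0151500). They were taken as a fixed list of gene identifiers, with no cut on their levels. The list was chosen with earlier results of these data known, so it is not independent of them. All 7 were found among the 35679 genes of the files. By their identifiers, OsYSL15 and OsYSL2 lie on chromosome 2, OsYSL16, OsYSL6 and OsYSL13 on chromosome 4, and TOM1 and ENA1 on chromosome 11.

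RNA was sequenced from whole roots and from L2 leaves of 11-day-old plants of the rice lines Hacha, derived from CRM 53 and IR 64, and Lachit, derived from CRM 13-3241 and Kalinga 2. From day 9 the plants stood for 2 days in one of the 2 solutions. The control solution held 50 µM Fe as sodium EDTA at pH 6.2. The excess-iron solution was the full-strength medium with 15 mM iron sulfate at pH 5.2, so that sulfate and acidity changed together with iron and their parts in a response cannot be told apart. The 23 libraries formed 8 groups of line, organ and solution, with 3 libraries each, except excess-iron root of Hacha with 2. Nothing in the labels ties a replicate to a plant of its own, so the spread behind each p-value may be technical. In whole organs, fewer cells of a type and less RNA per cell cannot be told apart.

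Grasses acquire ferric iron by secreting phytosiderophores of the mugineic acid family, which bind iron outside the root, and by taking the whole complex back up. In rice the phytosiderophore is deoxymugineic acid, made from nicotianamine, which itself carries iron and other metals inside the plant. Yellow stripe-like proteins move these metal complexes across membranes, and several genes of the system are known to be induced when iron is scarce.

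Libraries held 16659607 to 33386840 estimated counts. A library's mean correlation with the others of its group was 0.987 to 0.991 in root and ran more widely, from 0.934 to 0.994, in leaf. Replicate 3 of excess-iron leaf of Lachit was the lowest, and results that rest on it are given with and without it. The files name no genes, so organ markers were not checked.

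In root, excess iron lowered all 7 genes in both lines. In Hacha root, 7 of 7 were lower by edgeR's quasi-likelihood test at an adjusted p below 0.05, as were 32.7% of the 27479 genes tested. In Lachit root, 7 of 7 were lower, against 29.3% of the genes tested. The median log2 fold change of the 7 genes was -3.69 in Hacha root and -5.20 in Lachit root, where the medians over all genes tested were -0.05 and 0.

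In leaf the genes parted. In Hacha leaf, 4 of 7 were lower (32.9% of 25505 tested genes were lower), namely OsYSL15, OsYSL2, OsYSL13 and TOM1. OsYSL6 was the 1 gene of the 7 that was higher in Hacha leaf, where 32.4% of the genes tested were higher, and OsYSL16 and ENA1 did not pass the test. In Lachit leaf, 3 of 7 were lower (19.1% of tested genes), namely OsYSL15, OsYSL2 and TOM1, and 4 did not pass. The median log2 fold change of the 7 genes was -1.79 in Hacha leaf and -1.22 in Lachit leaf, against 0 and 0.02 over all genes tested. The median of Lachit leaf is the value of ENA1 and stays the same with TOM1, at 0 reads there, set to its bound.

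**Figure D1:**
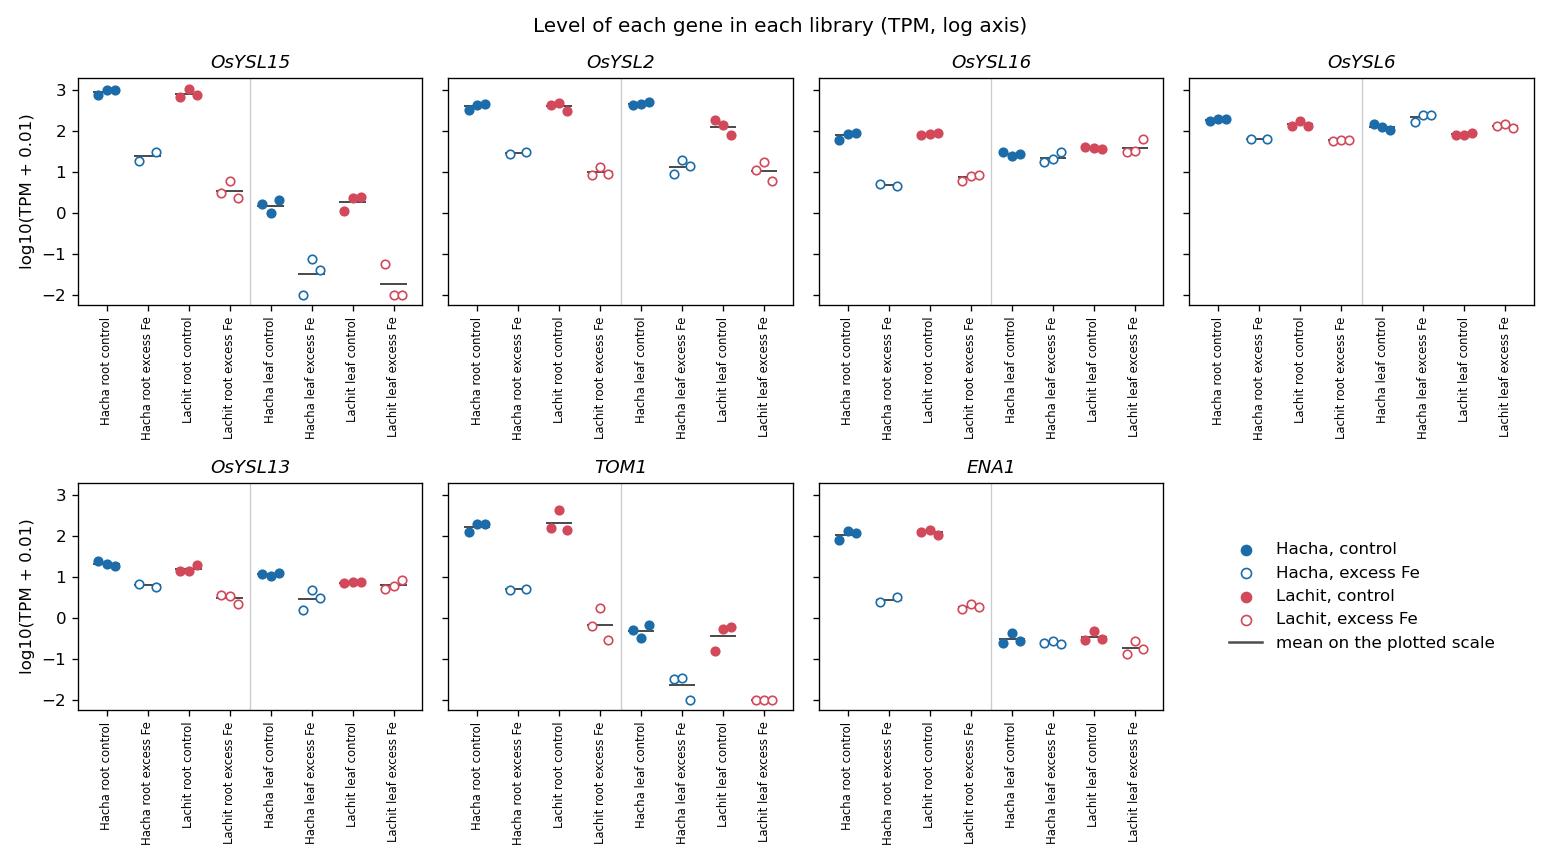
Level of each gene in each library, as log10(TPM + 0.01), for the 8 groups. Blue is Hacha and red Lachit, filled points are control and open points excess iron, and lines are means on the plotted scale. In root all open points lie below the filled points of the same line, and the drop is deepest for OsYSL15, TOM1 and ENA1. Points at -2 are libraries with 0 reads.

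TOM1, the transporter that exports deoxymugineic acid from the root, was among the more abundant transcripts of control root. Its TPM, a level per transcript length within a library, was 129, 197 and 198 in the 3 control root libraries of Hacha and 4.90 and 5.06 in the 2 excess-iron libraries. In Lachit root it was 160, 432 and 143 in control and 0.627, 1.70 and 0.269 under excess iron. Every control library lay above every excess-iron library of its line, and control replicate 2 of Lachit stood well above the other two. On counts scaled by TMM, TOM1 was 27.0-fold lower in Hacha root (log2 -4.76 ± 0.64 SE, adjusted p = 6.9e-05) and 253-fold lower in Lachit root (log2 -7.98 ± 0.63, adjusted p = 2.2e-06). The Lachit log2 value was -7.28 without control replicate 2 and -8.87 without excess-iron replicate 2. The gene's estimated counts were whole numbers, within 0.01, in 10 of 23 libraries, so part of its reads were shared with other genes and its level carries that uncertainty.

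In leaf TOM1 was near the limit of detection. Its control TPM was 0.483, 0.315 and 0.676 in Hacha and 0.145, 0.535 and 0.584 in Lachit. Under excess iron the Hacha libraries held 0.0222, 0.0239 and 0 TPM, and all 3 Lachit libraries held 0. The groups did not overlap in either line. Summed over libraries and scaled by effective library size, TOM1 fell from 58 to 2 reads in Hacha leaf, a ratio of 26.7 (95% exact binomial interval 7.08 to 226, counting error only; edgeR adjusted p = 0.0015). In Lachit leaf it fell from 54 reads to 0, which is at least 22.1-fold lower with a floor of 3 reads over the group (edgeR adjusted p = 0.0016).

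ENA1, which exports nicotianamine, was a root transcript in these plants. Its TPM in Hacha root was 80.9, 133 and 117 in control and 2.41 and 3.26 under excess iron. In Lachit root it was 128, 142 and 105 in control and 1.66, 2.14 and 1.88 under excess iron. The control libraries were all far above the excess-iron libraries, and the latter spread little within a line. ENA1 was 30.1-fold lower in Hacha root (log2 -4.91 ± 0.27 SE, adjusted p = 2.4e-07) and 59.3-fold lower in Lachit root (log2 -5.89 ± 0.23, adjusted p = 7.0e-08).

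Leaf levels of ENA1 were below 0.5 TPM in every library. They were 0.227, 0.418 and 0.259 TPM in Hacha control leaf and 0.236, 0.255 and 0.216 under excess iron, which overlap. Lachit leaf held 0.282, 0.459 and 0.296 TPM in control and 0.119, 0.262 and 0.163 under excess iron, where every control library was the higher. Neither difference passed edgeR's test: the log2 fold change was -0.28 ± 0.45 SE in Hacha leaf (adjusted p = 0.592) and -1.22 ± 0.45 in Lachit leaf (adjusted p = 0.0533). The Lachit value was -1.64 with an adjusted p of 0.0323 without excess-iron replicate 2. With both organs in one edgeR fit it was -1.23 with an adjusted p of 0.0107. It did not pass in the other fits.

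OsYSL15 takes up the ferric deoxymugineic acid complex at the root. By mean TPM it was the most abundant of the 7 genes in control root, ranking 73rd of 35679 genes in Hacha and 100th in Lachit. In Hacha root its TPM was 765, 1045 and 1009 in control and 19.1 and 30.1 under excess iron. In Lachit root it was 701, 1096 and 750.3 in control and 3.11, 5.96 and 2.24 under excess iron. No excess-iron library came near a control library, and the 3 excess-iron libraries of Lachit all lay below the 2 of Hacha. The drop was 30.7-fold in Hacha root (log2 -4.94 ± 0.42 SE, adjusted p = 2.8e-06) and 214-fold in Lachit root (log2 -7.74 ± 0.41, adjusted p = 2.6e-07). Only 0.229% of the genes tested in Lachit root had a lower log2 fold change than OsYSL15, and 4.32% in Hacha root.

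The leaf held little OsYSL15 even in control, at 1.67, 1.00 and 2.01 TPM in Hacha and 1.09, 2.26 and 2.42 TPM in Lachit. Under excess iron the leaf libraries held 0, 0.0661 and 0.0291 TPM in Hacha and 0.0448, 0 and 0 TPM in Lachit. Control and excess-iron libraries did not overlap. Reads fell from 193 to 4 in Hacha leaf, a ratio of 44.5 (95% exact binomial interval 17.1 to 165; edgeR adjusted p = 1.5e-04), and from 258 to 2 in Lachit leaf, a ratio of 159 (43.5 to 1318; edgeR adjusted p = 2.9e-04). These intervals cover counting error only. The fitted log2 fold changes, -5.42 in Hacha leaf and -7.02 in Lachit leaf, turn on these few reads: they were -6.67 without excess-iron replicate 2 of Hacha, -9.44 without excess-iron replicate 1 of Lachit and -6.37 without excess-iron replicate 3 of Lachit.

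The annotation used by the authors gives OsYSL15 a longer transcript of 2019 bases (-01) and a shorter one of 1868 bases (-02), and their proportions shifted in root. The longer transcript made up 67.3% ± 1.4 of the gene's TPM in control root of Hacha (SD, n = 3) and 67.3% ± 1.5 in control root of Lachit (SD, n = 3). Under excess iron its share was 10.5% and 10.7% in the Hacha root libraries and 6.77%, 33.2% and 9.01% in those of Lachit. All 5 excess-iron root libraries lay below all 6 control root libraries. The library at 33.2%, replicate 2, was also the highest of its group for 5 of the 7 genes. In control leaf the share was 67.8% ± 10.8 in Hacha and 59.6% ± 10.8 in Lachit (SD, n = 3 each). Excess-iron leaf had too few reads for a share.

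On mean TPM, the longer transcript was 242-fold lower under excess iron in Hacha root and the shorter one 13.9-fold lower. In Lachit root the shorter transcript was 92.9-fold lower. The longer one went from 460 to 746 TPM over the control libraries of Lachit to 0.210, 1.98 and 0.202 TPM. These shares are the program's split of reads between overlapping transcripts, and are given without a test. The fewest reads for the gene behind a share were 92 in a root library and 47 in a control leaf library.

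**Figure D2:**
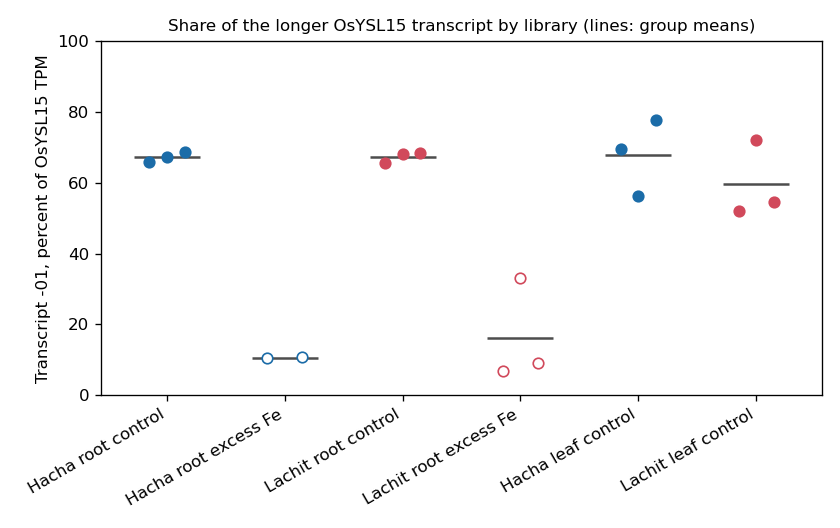
Share of the longer OsYSL15 transcript (-01) in the gene's TPM, in percent, for each library of the groups with enough reads. Points are libraries (filled control, open excess iron; blue Hacha, red Lachit) and lines are group means. Control roots lie between 65.6% and 68.8%, and excess-iron roots between 6.77% and 33.2%.

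OsYSL2 moves nicotianamine complexes of ferrous iron and manganese and is tied to phloem transport. It lies next to OsYSL15 on chromosome 2, with 0 protein-coding genes between them in the RefSeq assembly ASM3414082v1. Unlike OsYSL15, it was abundant in both organs. Its root TPM was 333, 448 and 449.6 in Hacha control, 28.2 and 31.6 in Hacha excess iron, 443, 491 and 304 in Lachit control, and 8.27, 13.0 and 9.08 in Lachit excess iron. All control root libraries lay above all excess-iron root libraries. OsYSL2 was 10.5-fold lower in Hacha root (log2 -3.40 ± 0.25 SE, adjusted p = 1.1e-06) and 36.7-fold lower in Lachit root (log2 -5.20 ± 0.23, adjusted p = 1.2e-07).

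In control leaf, OsYSL2 stood at 448, 455 and 509 TPM in Hacha and at 184, 142 and 78.9 TPM in Lachit. Excess-iron leaf held 8.73, 19.4 and 14.2 TPM in Hacha and 10.9, 17.9 and 6.12 TPM in Lachit. The lines were apart in control leaf and overlapped under excess iron. The drop was 31.7-fold in Hacha leaf (log2 -4.99 ± 0.51 SE, adjusted p = 2.2e-05) and 13.4-fold in Lachit leaf (log2 -3.75 ± 0.48, adjusted p = 4.1e-04).

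The ratio of the neighbours also differed by organ. OsYSL15 had 2.29 ± 0.05 times the TPM of OsYSL2 in control root of Hacha and 2.09 ± 0.46 times in control root of Lachit (SD, n = 3 each). In control leaf the ratio was 0.00329 ± 0.00095 and 0.0175 ± 0.0125 (SD, n = 3 each). Under excess iron in root it was 0.679 and 0.951 in the Hacha libraries and averaged 0.361 ± 0.107 in Lachit (SD, n = 3), below the control ratios of both lines.

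OsYSL16 transports nicotianamine complexes in the vascular tissue. In Hacha root its TPM was 61.3, 87.6 and 92.4 in control and 4.96 and 4.64 under excess iron. In Lachit root it was 82.2, 85.6 and 91.8 in control and 6.01, 7.98 and 8.32 under excess iron. The control ranges of the lines overlapped and the excess-iron ranges did not. The gene was 12.9-fold lower in Hacha root (log2 -3.69 ± 0.23 SE, adjusted p = 4.4e-07) and 10.5-fold lower in Lachit root (log2 -3.39 ± 0.19, adjusted p = 3.2e-07).

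In leaf, OsYSL16 stood at 30.9, 25 and 27.9 TPM in Hacha control and 18.0, 20.3 and 30.2 TPM under excess iron. Lachit leaf held 40.4, 38.3 and 37.2 TPM in control and 30.2, 32.0 and 62.8 TPM under excess iron. Control and excess-iron libraries overlapped in both lines. The log2 fold change was -0.20 ± 0.21 SE in Hacha leaf (edgeR adjusted p = 0.428) and -0.22 ± 0.21 in Lachit leaf (adjusted p = 0.443). The library at 62.8 TPM is replicate 3, the one that stood apart, and without it the Lachit value was -0.47 with an adjusted p of 0.0400.

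OsYSL6, a manganese-nicotianamine transporter with a role in detoxifying excess manganese, had the smallest root response and a different one in leaf. Its root TPM was 174, 199 and 197 in Hacha control, 64.3 and 64.5 in Hacha excess iron, 131, 175 and 137 in Lachit control, and 57.3, 60.6 and 60.6 in Lachit excess iron. The control libraries were all above the excess-iron libraries, and the excess-iron libraries lay close together. OsYSL6 was 2.30-fold lower in Hacha root (log2 -1.20 ± 0.15 SE, adjusted p = 4.5e-05) and 2.25-fold lower in Lachit root (log2 -1.17 ± 0.13, adjusted p = 2.3e-05). Of the genes tested, 21.8% in Hacha root and 16.6% in Lachit root had a lower log2 fold change.

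Hacha leaf went the other way for OsYSL6, from 147, 125 and 106 TPM in control to 167, 248 and 245 TPM under excess iron. The increase was 1.85-fold (log2 0.89 ± 0.21 SE, edgeR adjusted p = 0.0037). In Lachit leaf the TPM was 78.3, 82.0 and 91.9 in control and 130.1, 153 and 123 under excess iron. The TPM ranges did not overlap, but on TMM-scaled counts the groups overlapped, and the log2 fold change of 0.42 ± 0.21 missed the threshold (adjusted p = 0.141). It was 0.59 with an adjusted p of 0.0370 without excess-iron replicate 3, and 0.66 with an adjusted p of 0.0238 when counts were scaled by library totals, which puts the median of all genes in that comparison at 0.29. It also passed with both organs in one fit (0.44, adjusted p = 0.0450). With limma it was 0.68 at pseudocounts of 1 and 0.1 (adjusted p = 0.0149 and 0.0154), where the median of all genes at 1 was 0.18. It did not pass with DESeq2, DESeq2's size factors, no filter or the compared groups only. The transcript -04, of 2087 bases, led among the 4 annotated ones in all 8 groups, with mean shares of 68.6% to 85.0% of the gene's TPM.

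OsYSL13, a further member of the family, was the least abundant of the 5 OsYSL genes in control root. Its root TPM was 24.7, 20.7 and 19.1 in Hacha control, 6.85 and 5.77 in Hacha excess iron, 14.3, 14.2 and 20.2 in Lachit control, and 3.53, 3.51 and 2.19 in Lachit excess iron. Control and excess-iron libraries were apart in both lines. OsYSL13 was 2.62-fold lower in Hacha root (log2 -1.39 ± 0.23 SE, adjusted p = 2.8e-04) and 4.78-fold lower in Lachit root (log2 -2.26 ± 0.20, adjusted p = 4.9e-06).

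In Hacha leaf OsYSL13 fell from 11.8, 10.6 and 12.3 TPM to 1.56, 4.91 and 3.06 TPM, which was 3.46-fold (log2 -1.79 ± 0.29 SE, edgeR adjusted p = 2.9e-04). Lachit leaf held 6.93, 7.41 and 7.40 TPM in control and 5.17, 5.97 and 8.30 TPM under excess iron, with a log2 fold change of -0.47 ± 0.28 (adjusted p = 0.204). The Hacha groups were apart. The Lachit groups overlapped in TPM but not in TMM-scaled counts, at 12.8 to 14.7 CPM in control and 8.59 to 11.5 CPM under excess iron. Estimated counts of OsYSL13 were whole numbers in 6 of 23 libraries, so that its reads, like those of TOM1, were partly shared with other genes. The counts of OsYSL2, OsYSL6 and ENA1 were whole in 23 of 23 libraries, those of OsYSL16 in 22 and those of OsYSL15 in 21.

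**Figure D3:**
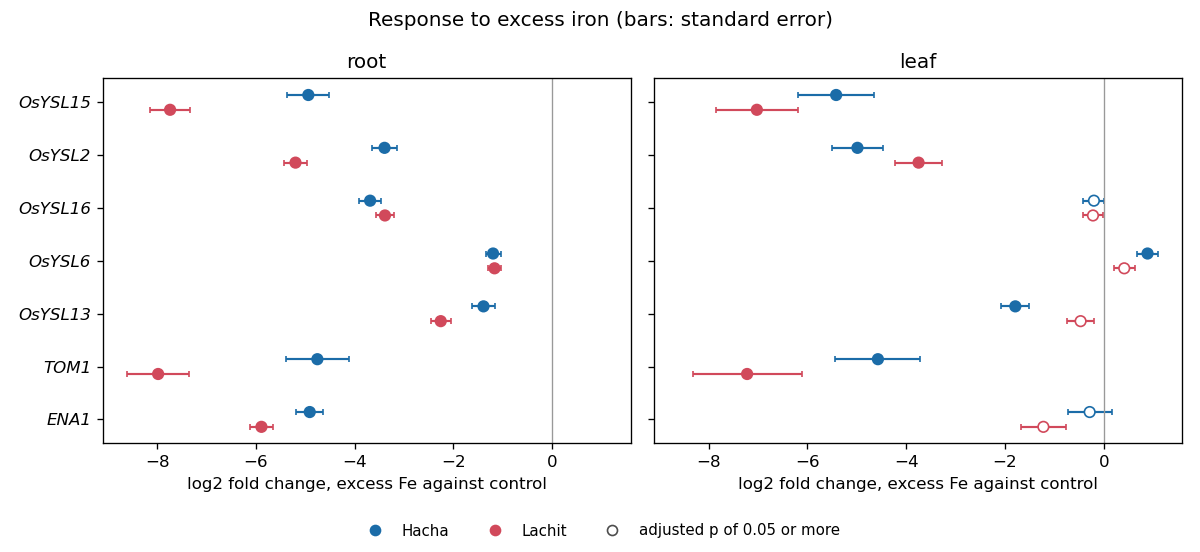
Log2 fold change of each gene under excess iron against control (edgeR, TMM-scaled counts) in root and in leaf. Blue is Hacha and red Lachit, bars are standard errors, and open points have an adjusted p of 0.05 or more. In root all 14 points lie below 0, and in leaf OsYSL16, OsYSL6 and ENA1 lie near or above 0 in Hacha. The leaf points of OsYSL15 and TOM1 rest on 0 to 4 reads under excess iron.

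The response of the lines was compared by the difference of their log2 fold changes. In root, 3 of 7 genes fell further in Lachit (6.98% of the genes tested had a lower response there). The difference was -2.80 ± 0.46 SE for OsYSL15 (edgeR adjusted p = 0.0029), -1.80 ± 0.29 for OsYSL2 (adjusted p = 0.0024) and -3.22 ± 0.76 for TOM1 (adjusted p = 0.015). OsYSL15 and OsYSL2 passed the test whichever library was left out. TOM1 did not without excess-iron replicate 2 of Hacha (-3.16, adjusted p = 0.0569), and its difference was -2.52 without control replicate 2 of Lachit and -4.14 without excess-iron replicate 2 of Lachit.

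ENA1 (-0.98 ± 0.31, adjusted p = 0.0507) and OsYSL13 (-0.87 ± 0.29, adjusted p = 0.0622) lay close to the threshold in the same comparison. ENA1 passed without control replicate 1 or 2 of Hacha or control replicate 3 of Lachit (adjusted p = 0.0416, 0.0315 and 0.0479), and OsYSL13 without control replicate 1 of Lachit (0.0446). With all libraries kept, both passed with DESeq2 (-1.03 and -0.92, adjusted p = 0.0139 and 0.0309). ENA1 passed as well with DESeq2's size factors and with no filter (edgeR adjusted p = 0.041 for both). Neither gene passed with library totals, limma or both organs in one fit. OsYSL16 (0.30 ± 0.27, adjusted p = 0.468) and OsYSL6 (0.03 ± 0.20, adjusted p = 0.942) did not pass. Their intervals were -0.22 to 0.82 and -0.35 to 0.41. Over all genes, 6422 were lowered in root of both lines and 1619 of these differed in response. Of the 1619, 116 (7.16%) fell further in Lachit, as OsYSL15, OsYSL2 and TOM1 did, and 1503 fell further in Hacha.

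In leaf, 1 of 7 genes differed in response between the lines, where 4196 of the 25505 genes tested differed in either direction. The 1 gene had a higher response in Lachit, as had 8.49% of the genes tested. It was OsYSL13, with a difference of 1.32 ± 0.39 SE (edgeR adjusted p = 0.0438). This call was lost when any of 9 of the 12 leaf libraries was left out, with adjusted p of 0.0604 to 0.106. Those 9 were all 3 control libraries of each line, excess-iron replicate 3 of Hacha and excess-iron replicates 1 and 3 of Lachit. OsYSL2, which fell 31.7-fold in Hacha leaf and 13.4-fold in Lachit leaf, had a difference of 1.24 ± 0.61 that did not pass (adjusted p = 0.178).

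With the lines set side by side in control root, 0 of 7 genes differed by edgeR (29.7% of the genes tested differed in either direction). None of the 7 had an unadjusted p below 0.05, DESeq2 called 0, and limma called 1, OsYSL6. The log2 difference of Lachit against Hacha was 0.00 for OsYSL15 (95% interval -0.58 to 0.59) and 0.15 for OsYSL2 (-0.23 to 0.52). TOM1 had the widest interval, 0.64 with bounds of -0.24 and 1.51. OsYSL6 stood at -0.22 (adjusted p = 0.228), and at -0.37 with an adjusted p of 0.0499 without control replicate 2 of Lachit.

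Under excess iron the roots of the lines were apart. In excess-iron root, 4 of 7 genes were lower in Lachit (20.1% of the genes tested were lower). These were OsYSL15, 6.95-fold lower (log2 -2.80 ± 0.35 SE, adjusted p = 1.2e-04), OsYSL2, 3.15-fold lower (-1.66 ± 0.22, adjusted p = 1.5e-04), TOM1, 6.01-fold lower (-2.59 ± 0.62, adjusted p = 0.0059), and OsYSL13, 2.17-fold lower (-1.12 ± 0.22, adjusted p = 0.0022). The TOM1 value was -3.50 without excess-iron replicate 2 of Lachit. OsYSL16 was the 1 gene that was higher in Lachit, where 26.6% of the genes tested were higher, at log2 0.56 ± 0.21 (adjusted p = 0.0476). Its call was lost without either excess-iron library of Hacha or without replicate 2 or 3 of Lachit, with adjusted p of 0.0967 to 0.160. It was also lost with DESeq2, DESeq2's size factors, no filter, both organs in one fit and the compared groups only (adjusted p = 0.0589, 0.0717, 0.070, 0.123 and 0.0538). ENA1, at -0.66 ± 0.26 (adjusted p = 0.0550), passed without excess-iron replicate 1 of Hacha (-0.91, adjusted p = 0.0444) and in the first 4 of those 5 fits (adjusted p = 0.0222, 0.0404, 0.0440 and 0.0438). These differences share the excess-iron root libraries with the differences of response above.

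By edgeR with all libraries, leaves of the lines differed in 1 gene of the 7 in each solution. Of the 25505 genes tested, 4857 differed in either direction in control leaf and 10864 in excess-iron leaf. In control leaf, OsYSL2 was 3.49-fold lower in Lachit, 1 of 7 genes called (8.65% of the genes tested were lower), at log2 -1.81 ± 0.44 SE with an edgeR adjusted p of 0.0157. Without control replicate 3 of Lachit, the library at 78.9 TPM, it was -1.57 with an adjusted p of 0.0568. In control leaf OsYSL6 (-0.58), OsYSL13 (-0.66) and OsYSL16 (0.48) did not pass (adjusted p = 0.0833, 0.127 and 0.141). They passed with edgeR on the compared groups only (adjusted p = 0.0164, 0.0023 and 0.0026). With both organs in one fit OsYSL6 and OsYSL13 passed (adjusted p = 0.0076 and 0.0336), and with DESeq2 OsYSL6 did (0.0188). In excess-iron leaf, OsYSL6 was 2.07-fold lower in Lachit, again 1 of 7 genes called (20.1% of the genes tested were lower), at log2 -1.05 ± 0.21 with an adjusted p of 0.0034. Its difference of leaf responses between the lines did not pass (-0.47 ± 0.30, edgeR adjusted p = 0.282). Without excess-iron replicate 2 of Hacha, OsYSL13 was higher in Lachit by 1.13 (adjusted p = 0.0042), and without replicate 3 of Hacha OsYSL16 was higher by 0.65 (adjusted p = 0.0394). With all libraries they stood at 0.67 (adjusted p = 0.0755) and 0.46 (adjusted p = 0.0986). Both passed with library totals (1.06 and 0.89, adjusted p = 0.0186 and 0.0192), where the median of all genes was 0.46. Both also passed with limma on log2(TPM + 1) (0.90 and 0.79, adjusted p = 0.0196 and 0.0302), where that median was 0.27, and on log2(TPM + 0.1). OsYSL13 passed with both organs in one fit (adjusted p = 0.0387). Neither passed in the remaining fits of all libraries.

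Levels in leaf and root were compared in a joint fit of both organs, which tested 29243 genes. In control Hacha, 4 of 7 genes were lower in leaf (37.3% of the genes tested), with OsYSL15 378-fold, TOM1 223-fold, ENA1 215-fold and OsYSL16 1.79-fold lower. OsYSL2 was the 1 gene called higher in leaf (29.7% of the genes tested were higher), by log2 0.89 ± 0.36 SE (adjusted p = 0.0339). That call was lost without any 1 of the control root libraries (adjusted p = 0.0514 to 0.114). With counts scaled by library totals it was 0.25 (adjusted p = 0.525), and the median of all genes was then -0.79. OsYSL6 was 0.08 ± 0.17 in this comparison and lower in leaf, at -0.56 (adjusted p = 0.0040), with library totals. OsYSL13 did not pass (-0.21 ± 0.25, adjusted p = 0.473), but it was lower in leaf with library totals (-0.85, adjusted p = 0.0099) and with limma (-0.84 and -0.89, adjusted p = 0.0038 and 0.0111).

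In control Lachit, 6 of 7 genes were lower in leaf (38.9% of the genes tested), OsYSL15 by 314-fold, TOM1 by 407-fold and ENA1 by 252-fold. TOM1 rested in part on control root replicate 2, without which its log2 difference was -7.98 in place of -8.67. The other three had smaller differences. OsYSL2 was 2.18-fold lower (adjusted p = 0.0095; 0.105 without control leaf replicate 3), OsYSL16 1.60-fold lower (adjusted p = 0.0056; 0.0659 and 0.0802 without control leaf replicate 2 or 3), and OsYSL13 1.60-fold lower (adjusted p = 0.0222). The OsYSL13 call was lost without any 1 of the control leaf libraries or without control root replicate 3, with adjusted p of 0.0732 to 0.153. It was also lost with DESeq2's size factors (-0.58, edgeR adjusted p = 0.0570) and with no filter (-0.53, adjusted p = 0.0901). OsYSL6 missed the threshold (-0.34 ± 0.17, adjusted p = 0.0916) and passed without control root replicate 1 (-0.46, adjusted p = 0.0396). With library totals OsYSL6 was at -0.77 (adjusted p = 2.8e-04), where the median of all genes was -0.67, and with limma at -0.79 and -0.80 (adjusted p = 1.4e-04 for both).

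Under excess iron some of the genes were higher in leaf. Of these, OsYSL16 in both lines and OsYSL13 in Lachit were lower in leaf in control. OsYSL6 did not pass in control in either line. In excess-iron Hacha, 3 of 7 genes were lower in leaf (27.4% of the genes tested) and 2 of 7 higher (26.3%). OsYSL16 was 5.97-fold higher in leaf (log2 2.58 ± 0.25 SE, adjusted p = 9.5e-08) and OsYSL6 4.27-fold higher (2.09 ± 0.21, adjusted p = 1.4e-07). In excess-iron Lachit, 3 of 7 were lower in leaf (30.2%) and 3 of 7 higher (27.9%): OsYSL16 by 5.89-fold (adjusted p = 6.0e-09), OsYSL6 by 2.49-fold (adjusted p = 3.2e-06) and OsYSL13 by 2.27-fold (adjusted p = 6.4e-04).

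The 3 genes lower in leaf under excess iron were OsYSL15, TOM1 and ENA1 in both lines. ENA1 was 9.30-fold lower in Hacha and 9.70-fold lower in Lachit. The other two had 0 to 4 reads in excess-iron leaf, so ratios of summed reads are given: OsYSL15 was 572-fold lower in Hacha (95% exact binomial interval 223 to 2102) and 233-fold lower in Lachit (64.2 to 1930.4). TOM1 was 236-fold lower in Hacha (64.7 to 1954) and at least 35.8-fold lower in Lachit, where the leaf held 0 reads. These intervals cover counting error only. The fitted log2 difference of OsYSL15 was -9.11 in Hacha and -10.3 without excess-iron leaf replicate 2. In Lachit it was -7.53, -10.1 without excess-iron leaf replicate 1 and -6.88 without excess-iron leaf replicate 3. That of TOM1 in Lachit was -7.98, and -7.08 without excess-iron root replicate 2. OsYSL13 in Hacha was at -0.68 ± 0.28 (adjusted p = 0.0502) and passed without excess-iron leaf replicate 2 (-1.11, adjusted p = 0.0014), with library totals (-1.06, adjusted p = 0.0076) and with limma (-0.89 and -1.10, adjusted p = 0.0088 and 0.0081). OsYSL2 in Lachit was at 0.39 ± 0.36 (adjusted p = 0.362) and passed without excess-iron leaf replicate 3 (0.76, adjusted p = 0.0444), and without that library and control leaf replicate 1 of Hacha together (0.76, adjusted p = 0.0466). OsYSL2 in Hacha was at -0.77 ± 0.39 (adjusted p = 0.107) and passed with library totals (-1.15, adjusted p = 0.0138), with limma (-1.09 and -1.15, adjusted p = 0.0191 and 0.0184) and without those 2 leaf libraries (-0.77, adjusted p = 0.0434). With library totals the median of all genes in this comparison was -0.39.

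The organs' responses were then compared with each other, a comparison added after the data were seen. In Hacha, 3 of 7 genes had a higher response in leaf (23.2% of the genes tested) and 1 of 7 a lower one (23.1%). The leaf response exceeded the root response by log2 4.53 ± 0.47 SE for ENA1, 3.42 ± 0.32 for OsYSL16 and 2.02 ± 0.26 for OsYSL6 (edgeR adjusted p = 5.6e-07, 1.9e-07 and 6.8e-06). For OsYSL2 it was lower by -1.66 ± 0.53 (adjusted p = 0.0151; 0.0550 without excess-iron root replicate 2). In Lachit, 5 of 7 genes had a higher response in leaf (17.3% of the genes tested). The excess was 4.70 ± 0.48 for ENA1, 3.24 ± 0.29 for OsYSL16, 1.65 ± 0.24 for OsYSL6, 1.86 ± 0.36 for OsYSL13 and 1.52 ± 0.51 for OsYSL2 (adjusted p = 1.8e-06, 5.7e-07, 6.4e-05, 6.6e-04 and 0.0276).

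ENA1, OsYSL16 and OsYSL6 had a higher response in leaf in both lines and passed whichever library was left out. OsYSL2 stood below 0 in Hacha and above 0 in Lachit, but the Lachit call was lost without any 1 of 6 libraries. These were control leaf replicates 2 and 3, excess-iron leaf replicate 2, control root replicate 2, and excess-iron root replicates 1 and 3, with adjusted p of 0.0525 to 0.163. The value was 0.87 without excess-iron leaf replicate 2. The Lachit call was also lost with all libraries of the compared groups only (1.34, edgeR adjusted p = 0.0863). OsYSL13 in Hacha was at -0.47 (adjusted p = 0.331) and passed without excess-iron leaf replicate 2 (-0.90, adjusted p = 0.0284). OsYSL15 and TOM1 did not pass in either line by edgeR. Their intervals were wide, for OsYSL15 -2.22 to 1.11 in Hacha and -3.38 to 4.90 in Lachit, and for TOM1 -4.47 to 4.68 in Hacha and -2.47 to 3.84 in Lachit. With limma both genes had a higher response in leaf in both lines, at pseudocounts of 1 and 0.1. OsYSL15 was at 3.93 and 1.64 in Hacha (adjusted p = 1.2e-07 and 0.0152) and at 6.03 and 3.78 in Lachit (adjusted p = 6.5e-10 and 1.7e-05). TOM1 was at 4.30 and 2.76 in Hacha (adjusted p = 5.0e-07 and 0.0045) and at 6.44 and 5.85 in Lachit (adjusted p = 3.3e-09 and 5.6e-06). Mean control leaf levels in Hacha and Lachit were only 1.56 and 1.92 TPM for OsYSL15 and 0.491 and 0.421 TPM for TOM1. Excess-iron leaf held at most 0.0661 TPM of OsYSL15 and 0.0239 TPM of TOM1, below both pseudocounts. The pseudocount therefore limits the leaf fall that limma can show, and these limma values cannot decide whether the leaf response was weaker. The sign differed between edgeR and limma only for OsYSL15 in Hacha, at -0.55 by edgeR. By edgeR OsYSL15 was at 0.76 in Lachit, and TOM1 at 0.105 in Hacha and 0.69 in Lachit. With each library left out, OsYSL15 ran from -1.82 to 1.41 in Lachit and TOM1 from -0.35 to 0.58 in Hacha. No direction is drawn for these genes.

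Across the 23 libraries the 7 genes formed no single pattern. Pearson's r of log2(CPM + 1) was 0.989 between OsYSL15 and TOM1, 0.986 between TOM1 and ENA1, and 0.975 between OsYSL15 and ENA1. OsYSL2 followed OsYSL13 most closely, at 0.874, and reached 0.582 with its neighbour OsYSL15. OsYSL6 had r of -0.112 with OsYSL15, -0.009 with TOM1 and -0.023 with ENA1. These values describe libraries that share organ, solution and line, and no test was made of them.

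**Figure D4:**
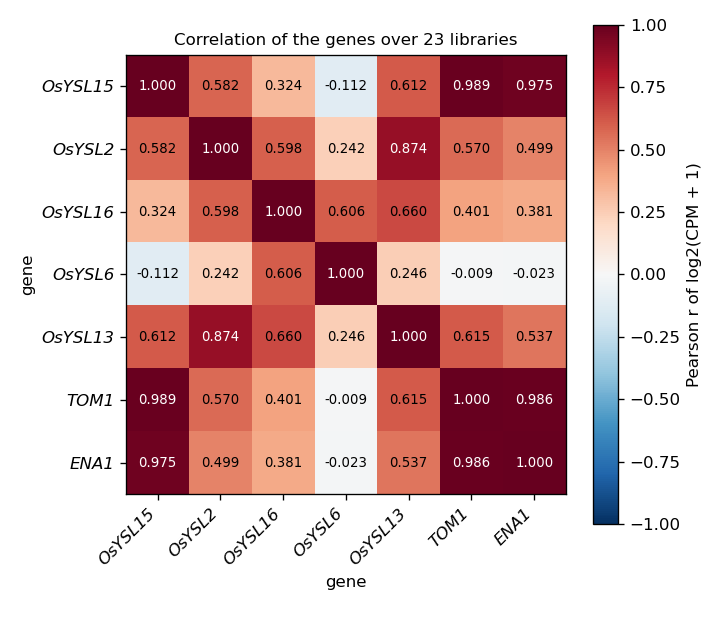
Pearson r of log2(CPM + 1) between each pair of the 7 genes over the 23 libraries. Rows and columns are genes and the colour and the printed value are r. OsYSL15, TOM1 and ENA1 form a block with r of 0.975 to 0.989, and OsYSL6 has r near 0 with all 3.

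The genes most like each of the 7 in level over the same 23 libraries were sought among 23607 genes by the same measure. OS03G0307300 on chromosome 3 was the most like both OsYSL15 (r = 0.994) and TOM1 (r = 0.991). OS02G0131400 was next for OsYSL15 (r = 0.983) and OS12G0132500 for TOM1 (r = 0.990). ENA1 was most like OS03G0185700 and OS05G0231100 (r = 0.991 and 0.990). For OsYSL2 they were OS01G0952800 and OS07G0258400 (r = 0.978 and 0.977), and for OsYSL13 they were OS09G0423500 and OS07G0103100 (r = 0.947 and 0.909). OsYSL16 was most like OS07G0152000 and OS07G0230700 (r = 0.919 and 0.916), and OsYSL6 was most like OS04G0666900 and OS04G0649100 (r = 0.924 and 0.904). The files give these identifiers no names. Reads of TOM1 and OsYSL13 were partly shared with other genes, and whether the genes named here are among those was not tested.

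Libraries of a group also differed over several of the 7 genes at once. In control root of Hacha, replicate 1 was the lowest of its group for 6 of 7 genes. In control root of Lachit, replicate 2 was the highest for 5 of 7. Excess-iron replicate 2 was the highest of its group for 5 of 7 genes in Lachit root and for 6 of 7 in Hacha leaf. Whether these shifts share a source was not tested.

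The order of the 8 groups by mean TPM differed between the genes. OsYSL15, TOM1 and ENA1 shared one order of organ and solution, with control root first, then excess-iron root, control leaf and excess-iron leaf. That order is of group means. The control root ranges of the lines overlapped for all 3 genes, as did their control leaf ranges. Excess-iron root of Lachit also overlapped control leaf for OsYSL15 and TOM1, and control leaf of Hacha overlapped excess-iron leaf of Hacha for ENA1. OsYSL2 was highest in control leaf of Hacha, at 471 ± 33.3 TPM (SD, n = 3), whose range overlapped that of control root of Lachit. OsYSL6 was highest in excess-iron leaf of Hacha, at 219.8 ± 46.1 TPM (SD, n = 3), overlapping control root of Hacha. OsYSL6 and OsYSL16 were both lowest in excess-iron root.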

How the data were processed

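Total RNA was isolated from 23 samples and sequenced as unstranded TruSeq libraries, per the labels' protocols, so antisense reads cannot be told apart. The authors' deposited estimated counts and TPM values come 1 line per transcript. The submitters' processing notes name bcl2fastq, kallisto and IRGSP-1.0, with versions not given in the sources used here. The 42346 transcripts were summed to 35679 genes and estimated counts were rounded. The deposited TPM values are relative to transcript length and library, per the file headers. All libraries were kept as separate samples, since replicates differed by a chi-square per gene of 7.69 to 277.

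Genes were tested with edgeR's quasi-likelihood method (edgeR 4.0.16, R 4.3.3) after filterByExpr and TMM, fitted to the 11 root, the 12 leaf or all 23 libraries, with Benjamini-Hochberg adjustment over all 27479, 25505 or 29243 genes tested and a threshold of 0.05. All 7 genes passed the filter in each fit. Standard errors are the log2 fold change over the square root of F, and 95% intervals of differences are approximate. Changes are relative to the typical gene. There were 14 comparisons planned and 2 added. The 7 genes and all lists were chosen with earlier results of these data known. The genes named as most alike are the 2 with the highest r for each of the 7, at a mean CPM of at least 1. The edgeR step was tested on simulated data.

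Alternatives were other size factors, library totals (added after the data were seen), no filter, DESeq2 1.42.0, limma 3.58.1 on log2(TPM + 1) and log2(TPM + 0.1), fits of other groups, leaving out each library, and leaving out control replicate 1 of Hacha leaf with excess-iron replicate 3 of Lachit leaf (added). Where excess-iron root of Hacha kept 1 library, it was taken to vary as the remaining groups do. Gene neighbours come from RefSeq's ASM3414082v1, which matched 1 identifier of the files, so other genes of the pathway, coordinates and sequences are not reported here.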

Additional observations from a re-analysis of the deposited data

Results flagged for a closer look

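The differences between responses below passed edgeR's test of the difference itself, and all are log2 values. Between the lines, the root response of Lachit minus that of Hacha was -2.80 for OsYSL15, -1.80 for OsYSL2 and -3.22 for TOM1. The same difference in leaf was 1.32 for OsYSL13.

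Between the organs, the leaf response minus the root response in Hacha was -1.66 for OsYSL2, 3.42 for OsYSL16, 2.02 for OsYSL6 and 4.53 for ENA1. In Lachit it was 1.52 for OsYSL2, 3.24 for OsYSL16, 1.65 for OsYSL6, 1.86 for OsYSL13 and 4.70 for ENA1. ENA1 stood below 0.5 TPM in all leaf libraries, so its leaf response is measured on few reads.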

How the results depend on the processing

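All 189 values of the 7 genes for excess iron against control in root, under all alternatives run, kept direction and call. Over all comparisons there were 1717 such values, of which 1551 kept both, 50 changed sign with no call in either fit, 46 lost the call, 65 gained one and 5 reversed. The reversed values were OsYSL6 in leaf against root of control Hacha, at -0.56 with library totals and -0.60 and -0.61 with limma at pseudocounts of 1 and 0.1 (0.08 in the report's fit), and the leaf minus root response of OsYSL15 in Hacha, at 3.93 and 1.64 with limma at the same pseudocounts (-0.55). With library totals the median over all genes was -0.79 in the first of these comparisons. In the second, excess-iron leaf of Hacha held at most 0.0661 TPM of OsYSL15, below both pseudocounts, which limits the fall limma can show. The cause of the reversals was not tested.

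The number of the 7 genes called moved in these comparisons. The difference of root responses gave 5 with DESeq2 in place of 3. The difference of leaf responses gave 0 in place of 1 with DESeq2's size factors, without a filter and without the 2 leaf libraries, and 0 to 1 with each library left out. Lachit against Hacha in control root gave 1 in place of 0 with limma at either pseudocount, and 0 to 1 with libraries left out. In control leaf it gave 2 with DESeq2, 4 with the compared groups only and 3 with both organs, in place of 1, and 0 to 1 with libraries left out. In excess-iron leaf it gave 3 with library totals and with limma at either pseudocount and 2 with both organs, in place of 1, and 1 to 2 with libraries left out. Excess iron against control in Lachit leaf gave 5 with both organs or without the 2 leaf libraries, in place of 3, and 3 to 5 with libraries left out. Leaf against root in control Lachit gave 3 to 7 with libraries left out, in place of 6.

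Counts over all genes moved by more than 1.5 times in 6 comparisons. The difference of leaf responses called 4196 genes, 6442 with DESeq2 and 8133 with both organs, and 1244 to 6665 with libraries left out. Lachit against Hacha in control leaf called 4857, 9302 with the compared groups only and 7960 with both organs, and as few as 3193 with a library left out. In excess-iron leaf the same comparison called 10864, and 5015 with the compared groups only. Excess iron in Lachit leaf called 9883, and as few as 6142 with a library left out. The difference of root responses called 5332, and 2057 with both organs and as few as 2801 with a library left out. Lachit against Hacha in control root called 8148, and 5116 with both organs.

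No paired analysis was possible because no number in the titles is shared by libraries of different groups. Depth limits OsYSL15 and TOM1 in excess-iron leaf, at 0 to 4 reads per group.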
